A study of Mus musculus with 6 samples.

Results

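The genes described here encode the proteins of the mitochondrial ribosome. They were chosen by name alone, as every gene whose symbol begins with Mrpl or Mrps followed by a digit, leaving out symbols that mark pseudogenes. The rule found 78 of the 54658 genes listed for single oocytes and 77 of the 14165 genes listed for pools of oocytes. The 77 were in both lists, and Mrps34 was not analysed here in the pools.

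Mitochondria keep a small genome and translate its messenger RNAs on a ribosome of their own. Its ribosomal RNAs, mt-Rnr1 in the small subunit and mt-Rnr2 in the large one, are encoded in that genome, while all of its proteins are encoded in the nucleus, made in the cytosol and imported. The ribosome makes only membrane subunits of the respiratory chain and of ATP synthase. Many of its proteins have a counterpart in bacterial ribosomes, and the others are found only in mitochondria. An oocyte arrested at metaphase II makes hardly any new RNA, so its messenger RNAs were mostly stored during growth.

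Libraries were made from polyadenylated RNA of mouse oocytes at metaphase II (MII), the stage that waits for fertilisation, by Smart-seq2, which amplifies full-length cDNA by PCR. The aged group was 59 single oocytes and the young group 35, with no treatment given for either, each deposited as 1 sample with 1 library per oocyte. The other groups were pools of 10 oocytes labelled young, of which 2 had received a control small interfering RNA (siCtrl pools) and 2 a small interfering RNA that targets Plat (siPlat pools), the gene of tissue plasminogen activator. The labels gave no strain, no age in weeks and no number of animals, so p-values from the pools measure only the spread between these samples, which may be technical. The study asked how oocytes change with age and what the loss of Plat does to them.

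Total counts were 17475952 and 13442260 in the siCtrl pools and 12142884 and 13139499 in the siPlat pools. Gene counts ran from 2018226 to 9502184 over the aged oocytes and from 5480050 to 11894782 over the young ones. Levels are given as CPM, counts per 1000000 gene counts of a library, after TMM scaling in the pools. Plat stood at 441 and 439 CPM in the siCtrl pools and at 51.4 and 39.0 CPM in the siPlat pools (log2 fold change -3.28, SE 0.19), as the labels state. Of the aged libraries, 21 stood apart, with 6.78% to 61.6% of their counts on mitochondrially encoded genes against 0.947% to 2.97% in the other 38 and 0.688% to 1.92% in young oocytes. Those 21 had counts on 7385 to 13849 genes against at least 14140 in every other oocyte, and 10 oocyte markers (among them Zp3 and Gdf9) summed to 632 to 3865 CPM there against at least 13672 CPM elsewhere. Age is therefore compared with and without them. Markers of cumulus and granulosa cells were low beside them, at 45.9 to 105 CPM summed over 10 genes in young oocytes and 25.7 to 88.8 CPM in the 38 aged oocytes. Of these 10, Fshr, Amh and Foxl2 were at 0 in all young oocytes and the others were not. Markers of stroma and endothelium summed to 102 to 234 CPM over 5 genes in young and 75.1 to 178 CPM in the 38 aged oocytes. Those of blood and immune cells summed to 4.74 to 21.2 CPM and 3.82 to 19.0 CPM over 6 genes.

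By textbook assignment, 51 of the 78 genes belong to the large subunit and 26 to the small one. The large subunit includes Mrps30 and Mrps18a, which were named for the small one. Mrps36 belongs to neither, since its product is now known as a part of the 2-oxoglutarate dehydrogenase complex. A bacterial counterpart is known for 46, and 31 are specific to mitochondria. The genes lie on 17 chromosomes. In the GRCm38 annotation the exons of 33 overlap those of another gene, and whether counting used strand is not given in the sources used here. Reads within the shared bases of such pairs therefore cannot be told apart. The shared part was as small as 2 bases, in Mrpl58. The overlap covers at least 50% of the exons in 3 genes, Mrpl53 (88.0%), Mrps34 (77.8%) and Mrps25 (69.8%).

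Promoters are shown because nuclear genes for mitochondrial proteins are classical targets of the activators NRF1 and GABPA (also called NRF2), the latter an ETS family factor. RefSeq promoters of GRCm38, 250 bases before to 50 bases after the start, were at hand for 69 of the genes. On either strand the NRF1 motif GCGCATGCG was in 7 of them (10.1%), against 1.95% of 27025 genes with a promoter and 2.61% of the 17491 that code for protein. The GABPA motif CCGGAAG was in 26 (37.7%), against 9.93% of all genes and 12.9% of the coding genes. The YY1 motif AAGATGGCG was in 8 (11.6%), against 1.64% and 2.14%. The NF-Y box CCAAT was in 39.1% against 41.1% and 42.3%, the Sp1 box GGGCGG in 49.3% against 38.2% and 49.2%, and the TATA box TATAAA in 7.25% against 15.7% and 14.8%. The E-box CACGTG was in 7.25% against 8.09% and 8.91%, and the cyclic AMP element TGACGTCA in 2.90% against 2.03% and 2.54%. No motif of these contains another, though matches may share bases at their ends, and a match describes the sequence only. Before the start alone, the NRF1 share was again 10.1%, while the GABPA share was 26.1% and the YY1 share 2.90%, so most YY1 matches reached past the start. The 7 genes with the NRF1 letters were Mrpl9, Mrpl10, Mrpl17, Mrpl22, Mrpl32, Mrpl39 and Mrps18b.

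The 80 bases before the start are printed for 6 genes on which the results below turn or which carry the motifs, 5′ to 3′ on the gene's strand, with matches to the NRF1, GABPA or YY1 letters in capitals. Mrpl22 holds both an NRF1 and a GABPA match, Mrpl9 and Mrpl32 an NRF1 match, Mrps22 and Mrpl34 a single GABPA match and Mrpl53 a GABPA match on each strand. In Mrpl32, overlapping NRF1 matches also begin 87 and 86 bases before the start. Their ends reach into the printed bases and are left in lower case. The windows are chr8:71464846-71464925 on the plus strand for Mrpl34, chr11:58171584-58171663 on the plus strand for Mrpl22, chr13:14613038-14613117 on the minus strand for Mrpl32, chr3:94443256-94443335 on the plus strand for Mrpl9, chr9:98601680-98601759 on the minus strand for Mrps22 and chr6:83109028-83109107 on the plus strand for Mrpl53.
Mrpl34: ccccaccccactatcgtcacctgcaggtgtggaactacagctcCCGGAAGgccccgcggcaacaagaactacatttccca
Mrpl22: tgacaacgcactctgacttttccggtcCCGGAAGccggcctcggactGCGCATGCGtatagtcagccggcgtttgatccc
Mrpl32: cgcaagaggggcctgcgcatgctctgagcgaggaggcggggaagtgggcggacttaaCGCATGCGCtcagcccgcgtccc
Mrpl9: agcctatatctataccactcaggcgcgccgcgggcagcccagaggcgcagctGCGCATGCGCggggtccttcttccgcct
Mrps22: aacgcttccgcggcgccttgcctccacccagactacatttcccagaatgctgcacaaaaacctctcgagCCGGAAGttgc
Mrpl53: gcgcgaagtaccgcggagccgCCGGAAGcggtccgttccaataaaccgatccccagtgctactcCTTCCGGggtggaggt

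In young oocytes the genes differed widely in level. Of the 78, 48 reached at least 5 CPM and 11 reached 50 CPM, while 8 stayed under 1 CPM, the median being 8.36 CPM. In the siCtrl pools, measured in another table with its own processing, 64 of 77 reached 5 CPM, 16 reached 50 CPM and 0 stayed under 1 CPM. The order of the genes was similar in both, with a Spearman rho of 0.78 over 77 genes that share transcript length and base composition, given as a description.

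Levels of different genes were compared per kilobase of the longest annotated transcript, among the 48 genes of at least 5 CPM. They ran from 1.22 to 98.8 CPM per kilobase with a median of 11.7. Mrps36, which is no ribosomal protein, was highest at 98.8 CPM per kilobase. Its 3 pseudogene rows held 33 to 795 counts over all oocytes, so reads may have been split between copies. It was followed by Mrpl21 at 84.6, Mrpl18 at 59.4, Mrpl22, which lines the exit tunnel, at 59.3 and Mrpl10, at the base of the stalk that recruits translation factors, at 34.6. The lowest were Mrps35 at 1.22, Mrps17 at 1.44, Mrpl16 at 1.87, Mrpl51 at 2.49 and Mrpl42 at 2.50 CPM per kilobase. Small subunit genes ran from 1.22 to 34.0 CPM per kilobase and large subunit genes from 1.87 to 84.6. The median was 12.4 CPM per kilobase in 29 large subunit genes and 9.44 in 18 small subunit genes. Genes with a bacterial counterpart had a median of 20.2 (27 genes) and those specific to mitochondria 6.04 (20 genes). Per kilobase of all annotated exons instead, Mrps36 came to 54.4, Mrpl18 to 51.8 and Mrpl21 to 47.9, so that Mrpl21 stood below Mrpl18, and the medians by origin were 12.8 and 4.37.

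**Figure D1:**
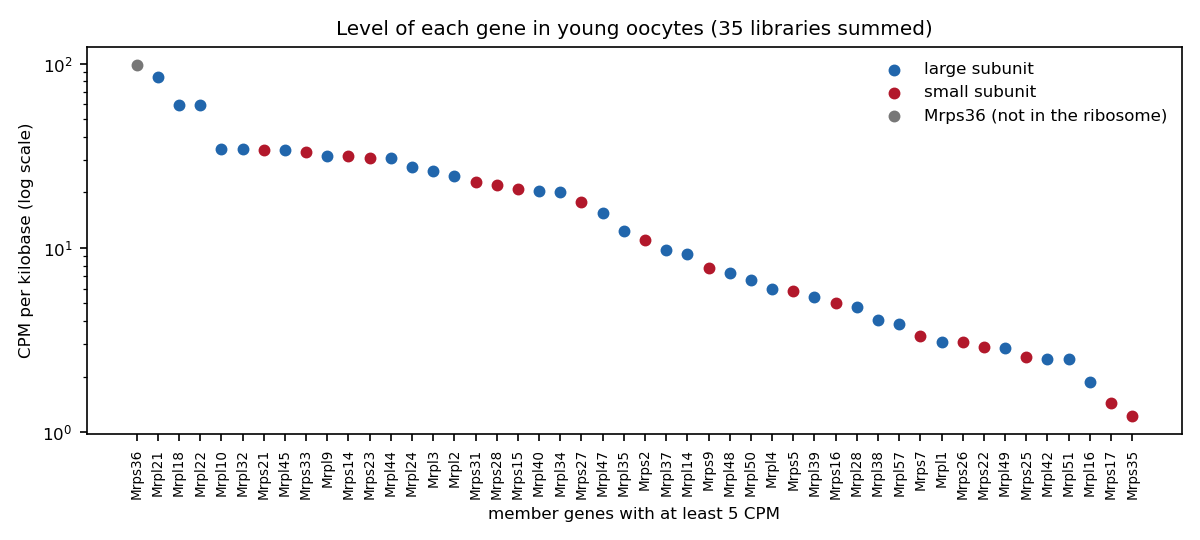
Level of each gene of at least 5 CPM in young oocytes, in CPM per kilobase of the longest transcript on a log scale, with the 35 libraries summed and genes ordered from high to low. Points are coloured by subunit, and they fall from 98.8 for Mrps36 to 1.22 for Mrps35. Large subunit genes reach up to 84.6 and small subunit genes up to 34.0.

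The levels of some genes differed between the tables. Mrpl53, a large subunit protein specific to mitochondria, had 0 counts in all 94 single oocytes, which allows up to 0.0122 CPM in the young and 0.0103 CPM in the aged group (exact Poisson 95% limits), but 51.7 and 42.3 CPM in the siCtrl pools and 88.3 and 56.6 CPM in the siPlat pools. Its exons overlap Ccdc142os on the other strand and Gm42688, and how that was counted in each table is not given. Mrps34 had a count in 3 of 35 young and 3 of 59 aged oocytes. Mrpl10 was at 59.1 CPM in young oocytes and 9.53 CPM in the siCtrl pools, and Mrpl18 at 72.5 and 494.9 CPM, levels set across tables that were made separately.

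The 3 genes of the S18 family show how paralogues of 1 bacterial protein can differ. Mrps18a is counted in the large subunit, Mrps18c holds the place of bacterial S18 in the small subunit and Mrps18b has its own site in the small subunit. In young oocytes Mrps18a stood at 3.10 CPM, Mrps18b at 2.41 CPM and Mrps18c at 0.277 CPM, all below 5 CPM. In the siCtrl pools Mrps18b was at 27.8 and 30.4 CPM, Mrps18a at 6.38 and 6.71 CPM and Mrps18c at 3.30 and 3.39 CPM. In the siPlat pools Mrps18b was at 32.0 and 32.5, Mrps18a at 5.86 and 7.62 and Mrps18c at 5.17 and 3.69 CPM, and the adjusted p of edgeR was 0.765, 0.970 and 0.684.

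From one young oocyte to the next these genes varied by an amount near that of other genes of their level, with somewhat lower medians above 20 CPM. The coefficient of variation (CV) of CPM over the 35 oocytes, the SD divided by the mean, had a median of 0.17 for the 11 genes of 50 to 120 CPM, beside 0.21 for 1510 genes of that level. It was 0.21 beside 0.26 for 14 genes of 20 to 50 CPM, and 0.35 beside 0.36 for 23 genes of 5 to 20 CPM. Mrpl45, which ties the ribosome to the inner membrane, varied least (CV 0.11), before Mrpl18 (0.12) and Mrpl24 (0.13). Mrpl28 (0.49), Mrpl49 (0.47) and Mrpl16 (0.43) varied most, all of them at 5 to 6 CPM, where counting adds to the spread. The Spearman correlation of a gene with the sum of the others over the 35 oocytes ran from -0.38 to 0.61 with a median of 0.28 and was positive for 40 of 48 genes. The libraries share their depth and composition, so these values are a description.

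Knockdown of Plat left nearly all of these genes without a call. Of 77 tested, only Mrpl34 passed the threshold of an adjusted p under 0.05 in edgeR's quasi-likelihood test (1.30%), where 394 of 11136 genes passed (3.54%). At an unadjusted p under 0.05 there were 19 (24.7%), against 18.8% of all genes tested. The median log2 fold change was 0.20 against -0.03 over all genes, and 52 of 77 were positive (67.5% against 47.8%). In pools of whole cells, fewer cells and less RNA per cell cannot be told apart.

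Mrpl34, a small protein of the large subunit with a bacterial counterpart, was at 34.5 and 33.5 CPM in the siCtrl pools and at 65.6 and 58.4 CPM in the siPlat pools. Both siPlat pools lay above both siCtrl pools, and the mean rose 1.82-fold, from 34.0 ± 0.713 to 62.0 ± 5.11 CPM (SD, n = 2). The log2 fold change was 0.87 (SE 0.19), with an adjusted p of 0.0313 in edgeR. The call ended when either siCtrl pool was left out, with an adjusted p of 0.187 without siCtrl 1 and 0.225 without siCtrl 2, and the fold change kept its direction. The 80 bases before its start, printed above, hold a GABPA match and no NRF1 match.

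The other genes at the upper end did not pass the test. Mrps21, a small subunit protein, stood at 29.8 and 28.9 CPM in the siCtrl pools and 64.3 and 40.4 in the siPlat pools (log2 fold change 0.83, SE 0.24, edgeR adjusted p 0.0846). Mrpl12, the protein of the flexible stalk that recruits translation factors, stood at 7.50 and 12.4 CPM and at 25.4 and 13.1 CPM (0.96, SE 0.36, edgeR adjusted p 0.185). The highest fitted value was that of Mrpl19, at 1.01 and 1.55 CPM and at 4.14 and 1.26 CPM (1.07, SE 0.73, edgeR adjusted p 0.482), which rested on 1 siPlat pool and came to -0.03 without it. Mrpl20, needed for assembly in bacteria, had 0.93 and Mrpl38 0.86, with adjusted p of 0.297 and 0.291 in edgeR. Among the abundant genes, Mrpl18 stood at 493 and 496 CPM in the siCtrl pools and at 693 and 643 CPM in the siPlat pools. Mrpl45 stood at 103 and 107 CPM and at 157 and 154 CPM. Neither passed (edgeR adjusted p 0.133 and 0.0858), though their groups did not overlap.

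At the lower end no gene passed the test. Mrpl28 was at 5.99 and 9.25 CPM in the siCtrl pools and at 1.72 and 2.83 CPM in the siPlat pools. Its groups did not overlap, and the log2 fold change was -1.73 (SE 0.44) with an adjusted p of 0.0570 in edgeR. Mrps11, on the platform of the small subunit, was at 6.999 and 9.11 CPM and at 3.02 and 3.14 CPM (-1.38, SE 0.37, edgeR adjusted p 0.0713). Its neighbour Mrpl46 starts on the other strand of chromosome 7 so that their exons share 173 bases. Mrpl46 stood at 8.29 and 7.63 CPM and at 9.22 and 6.44 CPM, with a fold change of -0.03, so the neighbours had unlike values. Mrpl39 (-1.01), Mrpl27 (-0.86), the pentatricopeptide repeat protein Mrps27 (-0.70) and Mrpl37 (-0.65) followed, none of them past the test.

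**Figure D2:**
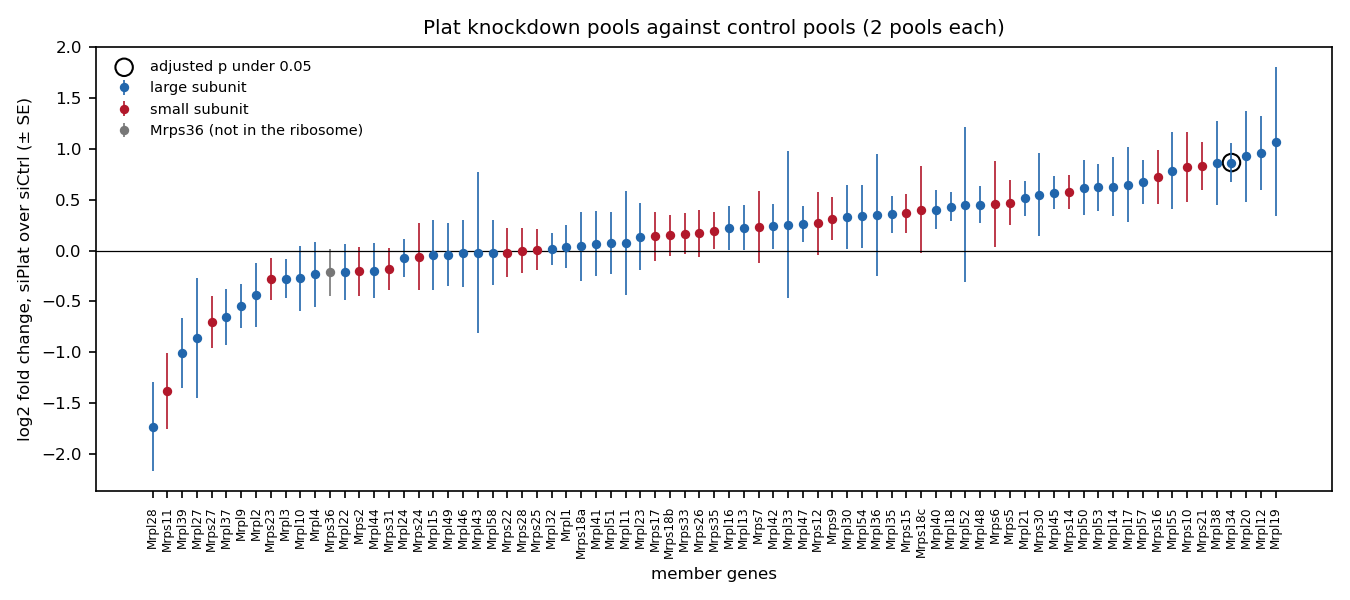
Log2 fold change of each of the 77 genes tested, siPlat over siCtrl pools (2 pools each), with its standard error as a bar and genes ordered from low to high. Values run from -1.73 for Mrpl28 to 1.07 for Mrpl19, and the ring marks Mrpl34, the 1 gene with an adjusted p under 0.05.

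The subunits had similar values in the pools. Of 51 large subunit genes 1 was called and the median log2 fold change was 0.23. Of 25 small subunit genes 0 were called in edgeR, where 6 had an unadjusted p under 0.05, DESeq2 called 2 (Mrps14 and Mrps21), limma-voom 0, and the median was 0.17. Genes with a bacterial counterpart had a median of 0.26 and those specific to mitochondria 0.11. Large subunit genes summed to 2083 and 2123 CPM in the siCtrl pools and to 2766 and 2429 CPM in the siPlat pools. Small subunit genes summed to 1184 and 1173 CPM and to 1566 and 1306 CPM. The siPlat pools lay above the siCtrl pools in both sums, and more so siPlat 1: the median difference of the genes from the siCtrl mean was 0.30 for siPlat 1 and 0.08 for siPlat 2. For 30 genes (39.0%) both siPlat pools lay above both siCtrl pools, where 23.5% of all tested genes did so, and for 11 (14.3%) both lay below, where 25.8% of all tested genes did. Of the 10 oocyte markers 3 were called lower and 0 higher in edgeR. Their median log2 fold change was -0.74, and 3 of the 10 had a positive value. Summed, the oocyte markers overlapped between the groups, at 18612 and 20666 CPM in siCtrl and 18057 and 20556 CPM in siPlat pools. Summed markers of cumulus cells overlapped between the groups, at 25.5 and 32.3 CPM in siCtrl and 21.1 and 40.8 CPM in siPlat pools. Stromal markers were lower in siPlat, at 20.3 and 20.5 against 27.3 and 28.8 CPM. The part of any of these marker lists in the values of the ribosomal protein genes was not tested.

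Other genes of mitochondrial gene expression gave 0 or 1 call a list in the same fit, where 3.54% of all genes were called. Of the ribosome's proteins named otherwise (Dap3, Ptcd3, Chchd1, Aurkaip1, Gadd45gip1) and the membrane insertase Oxa1l that docks on it, 0 of 6 passed in edgeR, with 0 at an unadjusted p under 0.05 and a median log2 fold change of 0.10. Of 19 assembly factors 1 rose, Fastkd2, which acts on the large subunit RNA, from 15.3 to 33.4 CPM (log2 fold change 1.13, edgeR adjusted p 0.0239), and the median was 0.14. Of 15 translation factors 0 were called and 3 had an unadjusted p under 0.05 in edgeR, with a median of -0.12. Of 10 genes of mitochondrial transcription and its activators 1 rose, the coactivator Ppargc1b, from 10.2 to 22.7 CPM (1.15, edgeR adjusted p 0.0340), beside a median of -0.40. Cytosolic ribosomal protein genes had 2 calls in 82, Rpl37 higher and Rps4l lower, and a median of 0.24, while nuclear genes of the respiratory chain had 2 in 81, Cox5a and Cox8a, both higher, and a median of 0.00.

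Age could be described but not tested, since each age was 1 sample. A ratio is log2 of aged over young CPM, each with 1 CPM added, which understates the change of low genes, and a gene enters where the mean of the young and the aged level is 5 CPM or more. With all 59 aged oocytes these genes kept close to the young level relative to all gene counts, with a median of 0.04 over 47 genes against -0.07 over all 8303. Only Mrps22 was at least 1.5-fold higher (2.13% of the genes, beside 9.45% of all) and 0 were at least 1.5-fold lower (beside 9.38% of all). Without the 21 aged libraries of high mitochondrial share the median was 0.29 over 49 genes against 0.08 over 8413. Then 11 genes were at least 1.5-fold higher (22.4%, beside 8.87% of all) and 0 lower (beside 1.87% of all), and 39 had a positive ratio (79.6% against 59.8%).

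These directions hold for shares of the gene counts and not for counts set against the ERCC spike-ins, synthetic RNAs added to the lysate, on which the median of the 41 genes past the level filter was -1.42 (all genes -1.47). Without the 21 libraries the same 49 genes had an ERCC-scaled median of -0.49, and all 8413 genes -0.71. Without the 21 libraries, the median of these genes lay above that of all genes on both scales. ERCC scaling moves the ratios of all genes by nearly the same amount, so the ERCC scale adds no separate support. ERCC counts of single young oocytes lay either between 70141 and 110006 or between 184609 and 427387. Those of the aged oocytes outside the 21 libraries ran from 117428 to 431162. How far this split in the young group sets the ERCC-scaled ratios was not tested.

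Summed over all 78 genes, young oocytes held 1610 CPM (exact Poisson 95% interval 1606 to 1615, which covers counting error only), and single young oocytes lay between 1446 and 1934 CPM. The 38 aged oocytes held 1973 CPM together and ranged from 1603 to 2424 with a median of 1976. Their range overlapped the young one, and their median lay above the highest young oocyte, though with ERCC scaling the sum was lower in these aged oocytes (log2 ratio -0.54 in place of 0.29). The 21 other aged oocytes held 497 CPM, from 126 to 1160, and all of them lay below the lowest young oocyte. With all 59 the sum was 1575 CPM, close to the young value.

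Between ages the small subunit sum differed more than the large one, relative to gene counts. Its genes summed to 410 to 613 CPM in young oocytes (median 463) and to 487 to 828 in the 38 aged oocytes (median 657). Large subunit genes summed to 911 to 1265 CPM in young (median 1052) and 1065 to 1524 in the 38 aged oocytes (median 1246). The ratio of the large sum to the small sum, which no scaling of a library can change, was 1.71 to 2.44 in young oocytes (median 2.25) and 1.69 to 2.23 in the 38 aged oocytes (median 1.92). In the 21 others it was 1.78 to 9.47 with a median of 3.01.

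**Figure D3:**
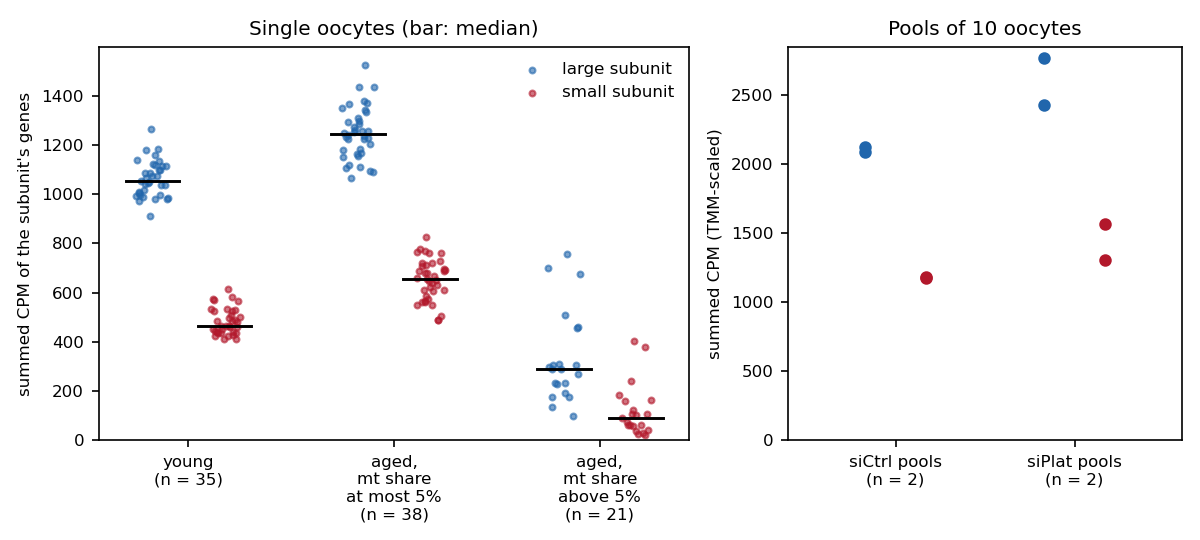
Summed level of the large and the small subunit genes, in CPM on axes that start at 0, for each single oocyte (left, with the median as a bar) and for each pool (right). Large subunit medians are 1052 CPM in young and 1246 CPM in the 38 aged oocytes, and the 21 aged oocytes with a mitochondrial share above 5% sit far lower. With ERCC scaling, which varied widely between oocytes, the sum over both subunits is lower in the 38 aged oocytes than in the young.

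Relative to gene counts, 7 of the 11 genes past 1.5-fold between ages were of the small subunit. Without the 21 libraries 7 of 19 small subunit genes (36.8%) and 4 of 29 large subunit genes (13.8%) were at least 1.5-fold higher, beside 8.87% of all genes, with medians of 0.35 and 0.25. By origin it was 6 of 20 mitochondria-specific genes (median 0.36) and 5 of 28 with a bacterial counterpart (median 0.27). With ERCC scaling of the same genes 0 were at least 1.5-fold higher and 7 small and 12 large subunit genes at least 1.5-fold lower, with medians of -0.42 and -0.50. On that scale 20 of all 49 genes past the filter were lower by that fold, beside 5334 of all 8413 genes. Of the 8413, 30 were higher. With 1 sample per age these differences were not tested.

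Mrps22, a small subunit protein whose human counterpart has been linked to ovarian failure, had the highest ratio. Young oocytes ran from 3.94 to 14.5 CPM with a median of 9.65, and the 38 aged oocytes from 9.39 to 33.4 with a median of 20.01. The ranges overlapped, and the aged median lay above every young oocyte. The ratio was 1.05 without the 21 libraries and 0.67 with all, and it was 0.26 and -0.66 with ERCC scaling. Mrps33 ran from 22.4 to 59.5 CPM in young (median 36.2) and from 30.0 to 118.4 CPM in the 38 aged oocytes (median 73.3), a ratio of 0.94, or 0.12 with ERCC scaling. Mrps31 ran from 38.5 to 108.6 CPM (median 58.5) and from 59.4 to 174.2 CPM (median 103.9), a ratio of 0.78, which ERCC scaling took to -0.05. Most aged oocytes were thus higher than most young ones in these genes, without a gap between the ages.

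In the large subunit Mrpl42 ran from 4.42 to 16.9 CPM in young oocytes (median 7.12) and from 6.62 to 42.3 CPM in the 38 aged (median 13.5), a ratio of 0.83. Mrpl1, of the stalk beside the exit site, ran from 5.72 to 25.2 CPM (median 10.3) and from 11.5 to 44.8 CPM (median 18.1), a ratio of 0.75. Their ratios with ERCC scaling were 0.06 and -0.03. Mrps24, at 4.01 CPM in young and 7.27 CPM in the 38 aged oocytes, and Mrps25, at 15.5 and 26.0 CPM, had ratios of 0.72 and 0.71, and 0.02 and -0.09 with ERCC scaling. The overlap of Mrps25 with Nr2c2 on the other strand leaves the source of its reads uncertain. The remaining genes past 1.5-fold were Mrpl28 (0.71), Mrps21 (0.68), Mrpl39 (0.68) and Mrps17 (0.62), which ERCC scaling took to between -0.13 and -0.02. Mrpl40 stood just under that fold, with 26.0 and 39.2 CPM (0.57, or -0.23 with ERCC scaling). Mrpl28 and Mrpl39, low in the siPlat pools, were thus among the higher ones in aged oocytes relative to gene counts. With ERCC scaling their ratios were negative, though above the median of -0.49 over the 49 genes past the filter.

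The lowest ratios were found in both subunits. Mrpl10, of the large subunit's stalk base, ran from 34.9 to 90.6 CPM in young oocytes (median 57.9) and from 25.2 to 84.4 CPM in the 38 aged (median 49.6), a ratio of -0.24. Mrpl3 ran from 78.3 to 143.9 CPM (median 102.1) and from 63.2 to 121.9 CPM (median 88.2), a ratio of -0.18. For Mrpl44, which has a fold of the RNase III family, the ranges were 18.9 to 55.4 and 27.5 to 51.0 CPM, a ratio of -0.12. Young and aged ranges overlapped nearly throughout in these 3 genes. Mrps26 (-0.10), Mrpl24 (-0.09) and Mrps15 (-0.08) were next, and Mrpl2 stood at -0.01. With all 59 aged oocytes the lowest were Mrpl44 (-0.54), Mrpl3 (-0.51), Mrps15 (-0.47), Mrpl10 (-0.42), Mrpl24 (-0.39) and Mrpl2 (-0.39), and all kept a negative sign with ERCC scaling.

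**Figure D4:**
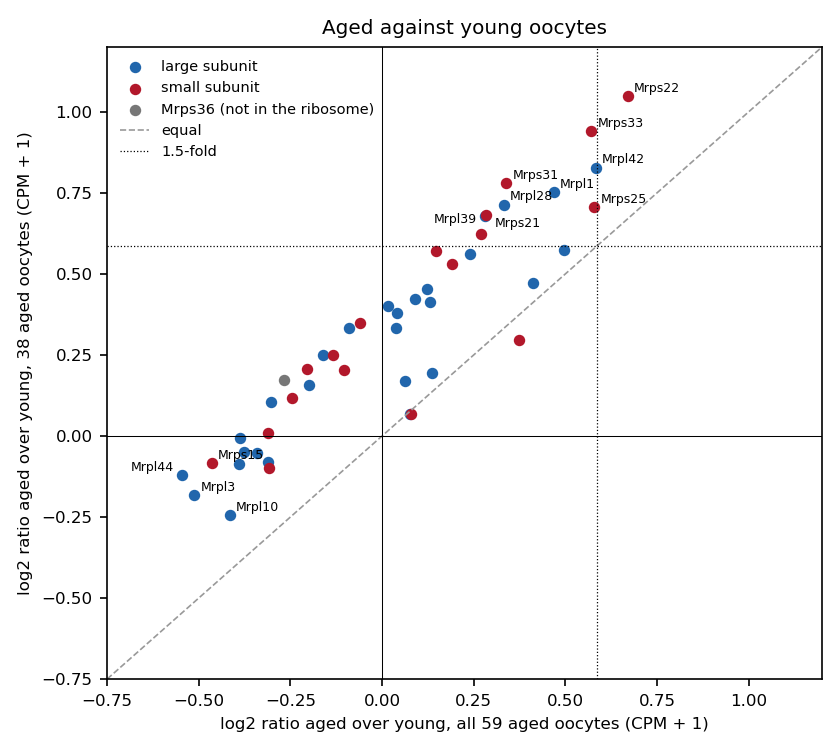
Log2 ratio of aged over young CPM (1 CPM added) for each gene that passed the level filter in both comparisons, with all 59 aged oocytes on the horizontal axis and with the 38 on the vertical axis. Dotted lines mark 1.5-fold and the dashed line equal values; Mrps22 is farthest out at 0.67 and 1.05, and with ERCC scaling these 2 values are -0.66 and 0.26.

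Some genes named above were under the level filter between ages. Mrps18a stood at 3.10 CPM in young and 4.56 CPM in the 38 aged oocytes, Mrps18b at 2.41 and 3.45 CPM and Mrps18c at 0.277 and 0.445 CPM. The neighbours Mrpl46 and Mrps11 stood at 1.46 and 3.95 CPM and at 2.89 and 4.84 CPM, with ratios of 1.01 and 0.59, or 0.38 and -0.07 with ERCC scaling. Mrpl34, called in the siPlat pools, was at 12.2 CPM in young and 16.5 CPM in the 38 aged oocytes, a ratio of 0.40, with 0.02 over all 59 and -0.37 with ERCC scaling of the 38. Plat itself was at 7193 CPM in young oocytes and 5007 CPM in the 38 aged (ratio -0.52, or -1.36 with ERCC scaling).

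The 21 aged libraries of high mitochondrial share gave these genes a summed level of 497 CPM against 1610 CPM in young oocytes, as above. Single genes are described here for those with enough counts in young oocytes, a choice that favours genes high in the young. Of 48 genes with at least 5 CPM in young oocytes, 43 (89.6%) had a median in the 21 libraries below the lowest young oocyte, where 63.9% of 8230 genes had. None of the 48 had a median above the highest young oocyte, where 9.26% of all genes chosen in the same way had. Of the 30 genes under 5 CPM in young oocytes, 9 had a median below the lowest young oocyte and 1 above the highest. That 1 was Mrpl19, with a median of 7.07 CPM in the 21 libraries (0 to 25.6) against 0.703 to 4.97 CPM in young oocytes. A gene at 0 in any young oocyte could not lie below the lowest, and the share over all genes under 5 CPM is not given here. When mitochondrially encoded genes were left out of the total, a scaling added after seeing the data, 42 of the 48 were below (87.5%, against 56.6% of all genes). Cytosolic ribosomal protein genes had 39 of 42 (92.9%) below the lowest young oocyte, and nuclear genes of the respiratory chain 47 of 50 (94.0%). The group is defined by its RNA content and the genes by their level in young oocytes, so these shares are a description and support nothing further.

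Within those libraries the genes were unequal. Mrpl28, Mrpl34, Mrpl39, Mrpl44, Mrpl49 and Mrps28 had a median of 0. For Mrpl44, with a median of 43.0 CPM in young oocytes, 10 of the 21 libraries held any count. Mrps36 had a median of 0.357 CPM against 69.0 CPM in young oocytes and Mrps31 0.535 against 58.5 CPM. Others stayed nearer their young level. Mrpl32, whose protein is matured by a mitochondrial protease before assembly, had a median of 36.2 CPM (4.09 to 95.4) against 103.7 CPM. Mrpl48 had 18.4 CPM (0.463 to 131.6), inside the young range of 17.2 to 47.0 CPM. Mrpl1, Mrpl16, Mrps7 and Mrps25 also had medians that were not below the lowest young oocyte. Single libraries went far above the young range, as for Mrps23, with 0.232 to 195 CPM in the 21 against 31.1 to 55.2 CPM in young oocytes.

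**Figure D5:**
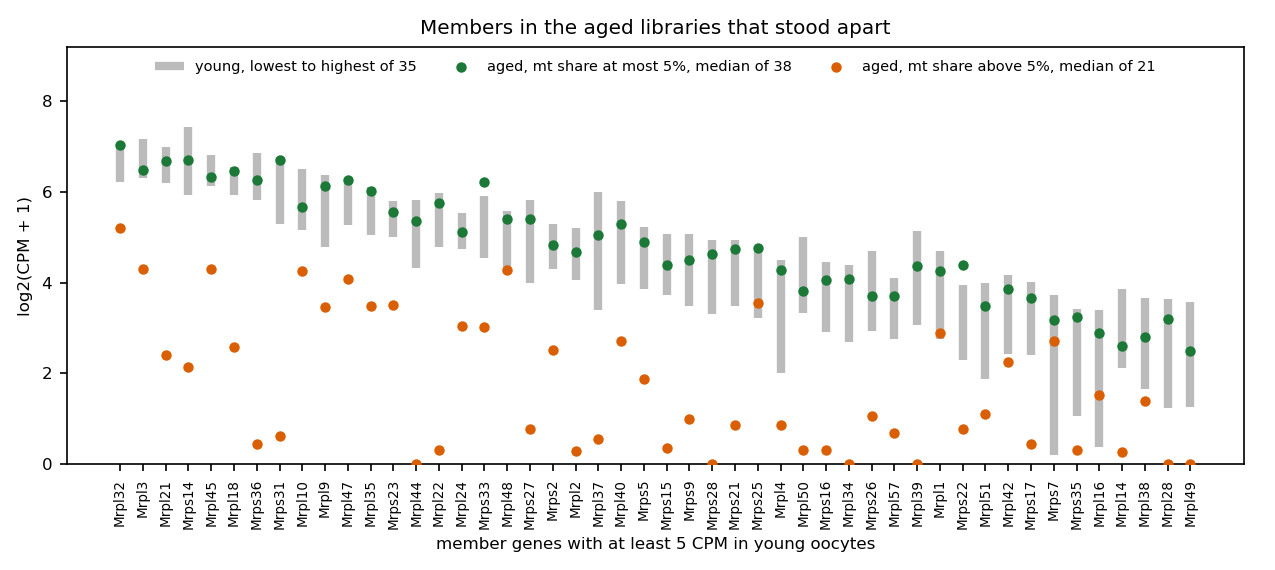
Level of each of the 48 genes of at least 5 CPM in young oocytes, as log2(CPM + 1). Grey bars span the lowest to the highest of 35 young oocytes, green points are medians of the 38 aged oocytes and orange points medians of the 21 aged oocytes with a mitochondrial share above 5%; 43 of the 48 orange points lie below the grey bar.

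The ribosomal RNAs that these proteins bind were high in the same libraries. The small subunit RNA mt-Rnr1 had a median of 415 CPM in young oocytes (210 to 1042) and 22675 CPM in the 21 aged libraries (3682 to 70108). The large subunit RNA mt-Rnr2 had a median of 106707 CPM there (25540 to 323433) against 2272 to 5436 CPM in young oocytes. In both RNAs every one of the 21 libraries lay above every young oocyte. Both RNAs are themselves counted in the mitochondrial share by which the 21 libraries were set apart. This separation therefore supports nothing further. In the 38 aged oocytes mt-Rnr1 ran from 293 to 3607 CPM and mt-Rnr2 from 4025 to 11274 CPM, which overlapped the young values. These libraries were primed on poly(A) tails, and no measure of whole ribosomal RNA was made.

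Partners of the ribosome were mixed between ages. Without the 21 libraries and relative to gene counts, Gadd45gip1, a large subunit protein outside the name rule, was at 14.2 CPM in young and 64.6 CPM in the 38 aged oocytes, a ratio of 2.11. Young oocytes ran from 7.63 to 24.7 CPM and the 38 aged from 37.2 to 113 CPM, so the ranges did not overlap, and the ratio was 1.29 with ERCC scaling. Dap3 was at 102 and 145 CPM (0.50), Aurkaip1 at 4.22 and 6.01 CPM (0.43), Oxa1l at 5.55 and 4.75 CPM (-0.19) and Ptcd3 at 43.8 and 35.5 CPM (-0.30), and Chchd1 was under the filter at 2.93 and 4.81 CPM. With ERCC scaling all 5 of these others were negative, from -1.10 for Ptcd3 to -0.09 for Chchd1.

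Assembly and translation factors had medians near 0 relative to gene counts. The median ratio was 0.02 over 16 assembly factors, with Tfb1m, the methylase of the small subunit RNA, highest (53.5 to 92.0 CPM, 0.77), then Mterf4 (0.43), and Rpusd4 (-0.38) and Gtpbp10 (-0.34) lowest. It was -0.03 over 11 translation factors and RNA-binding partners, with Lrpprc (10.03 to 21.3 CPM, 1.01) and Mtrf1 (0.56) highest and the elongation factors Gfm1 (-0.31) and Tsfm (-0.23) lowest. It was also -0.03 over 6 genes of transcription and its activators, where Tfam, which packages mitochondrial DNA, went from 2.97 to 7.23 CPM (1.05) and Ppargc1b had 0.05, while Tfb2m (-0.14) and Gabpb1 (-0.13) were lowest. With ERCC scaling the medians over the same genes were -0.73, -0.81 and -0.83, beside -0.49 for the mitochondrial ribosomal protein genes and -0.71 for all genes. In each of the 3 lists, by gene counts, 1 gene was at least 1.5-fold higher (6.25%, 9.09% and 16.7%, beside 8.87% of all genes) and 0 were lower. Cytosolic ribosomal protein genes had a median of 0.48, with 20 of 46 at least 1.5-fold higher (43.5%), and nuclear genes of the respiratory chain 0.51, with 23 of 54 (42.6%). With ERCC scaling the medians of the same genes were -0.26 and -0.23.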

How the data were processed

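Smart-seq2 libraries of 94 single oocytes (59 aged, 35 young) and of 4 pools of 10 young oocytes (2 siCtrl, 2 siPlat) were analysed. The authors deposited 2 tables of raw read counts, whole numbers with no normalization. Per the submitters' processing notes STAR 2.7.10b, HTSeq 0.13.5 and the build mm10 were used, with no role stated. Annotation and strand setting are not given in the sources used here. PCR reads without molecular identifiers are not independent molecules, so intervals cover counting error only. The genes and gene lists were chosen with earlier results of these data known.

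Pools were tested in R 4.3.3 with edgeR 4.0.16 (quasi-likelihood, robust, TMM factors, default expression filter of 10 counts and 15 in total, no covariate), over 11136 genes with Benjamini-Hochberg adjustment and a threshold of 0.05. On simulated counts for siPlat against siCtrl (11064 genes), 46 of 100 true 2-fold and 90 of 100 true 4-fold changes were called, beside 3 false calls. Alternatives were DESeq2 1.42.0, limma 3.58.1 with voom, DESeq2 size factors in edgeR, no filter, a replicate block and leaving out each pool. The labels state no pairing of the pools, so the numbers were not taken to pair them. Deviations of same-numbered pools correlated at -0.0523. With 2 pools a group there is only 1 such value, which cannot decide whether the pools are paired.

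Counts of the oocytes of each age were summed and divided by the summed gene counts, without ERCC spike-ins, to give CPM, and ratios used a pseudocount of 1 CPM and a minimum of 5 CPM in the mean of both ages. Each age is 1 sample, so no test was made and 1.5-fold took the place of a call. Exact Poisson 95% intervals were used. Gene positions and overlaps came from the GENCODE annotation of GRCm38 (mm10), and promoters from RefSeq. Of the promoters, 44 of 46 on the plus strand and 27 of 29 on the minus strand were placed in a transcript of their gene. The 5 pseudogene rows left out by the rule held 33 to 795 counts over all oocytes.

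Genes named in the text were the one called in the pools, the 6 highest and 6 lowest fold changes or ratios in each comparison, the 5 highest and 5 lowest levels per kilobase, the 3 most and 3 least variable, those with 0 counts in a table, the S18 family, Plat and, of the other lists, those called in the pools and the 2 highest and 2 lowest ratios. Mrpl18, Mrpl45, Mrpl46, Mrps14, Mrpl34 between ages, the further genes past 1.5-fold and those described in the high-share libraries were chosen after their values were seen.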

Additional observations from a re-analysis of the deposited data

How the results depend on the processing

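The pool comparison rests on 2 pools a group. Called genes numbered 394 in all, 645 with DESeq2 and 157 to 1145 when 1 pool was left out (157 without siCtrl 1, 160 without siCtrl 2, 713 without siPlat 1, 1145 without siPlat 2). Of the mitochondrial ribosomal protein genes 4 were called with DESeq2 (Mrpl34, Mrpl45, Mrps14, Mrps21), 3 with no filter (Mrpl28, Mrpl34, Mrps21) and 0 to 9 when 1 pool was left out. With the replicate number as a block 0 of the ribosomal protein genes were among 273 genes called (Mrpl34 edgeR adjusted p 0.0600), against 1 of 394 without it. The pools share only a number. Over the other settings the adjusted p of Mrpl34 ran from 0.00382 (DESeq2) to 0.225. The median log2 fold change of the genes stayed between 0.08 and 0.31 in every setting. Except for the main fit, no share of calls over all tested genes is given. The counts of called ribosomal protein genes in the alternatives therefore describe these genes alone and cannot be set against a background. Of 162 values for 18 named genes, 146 kept their direction and side of the threshold. The direction turned for Mrpl19 without siPlat 1 and for Mrps18a and Mrpl46 without siPlat 2, and for Mrpl46 also without siCtrl 1. Over the pools left out, Mrpl19 ranged from -0.026 to 1.70, Mrps18a from -0.15 to 0.21 and Mrpl46 from -0.31 to 0.22. The cause was not tested.

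Between ages the scaling and the 21 libraries set the values. The median ratio of 0.04 became 0.29 without the 21 libraries, 0.11 with a minimum of 1 CPM, -0.13 with 20 CPM, 0.10 with the median and -0.058 with the mean over oocytes, 0.17 without mitochondrially encoded genes and -1.42 with ERCC scaling. Without the 21 libraries it was -0.47 with ERCC scaling (44 genes past the filter on that scale) and 0.27 with the median over oocytes. The count past 1.5-fold, 1 in all, became in the same order 11, 4, 0, 3, 2, 6, 41, 17 and 12, with 3 and 0 for a pseudocount of 0.1 and 5 CPM. All 41 and 17 under ERCC scaling were lower. Shares over all genes are given above only for the main setting and for that without the 21 libraries, so the other counts describe these genes alone. The log2 ratio of the summed level, -0.03, became 0.29 without the 21 libraries, 0.045 with the median, -0.17 with the mean, 0.092 without mitochondrially encoded genes, -0.058 with TMM and -1.51 with ERCC scaling, and without the 21 libraries -0.54 with ERCC scaling and 0.30 with the median. Of 300 values for 25 named genes 167 moved by more than their counting interval, and of the 18 with a ratio above 0 all 18 turned negative with ERCC scaling, among them Mrps22 (-0.66) and Mrpl46 (-0.25), which had been past 1.5-fold. Without the 21 libraries 13 of 18 did so. Ratios of genes under 5 CPM are limited by counting.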
